A study of Homo sapiens with 4 samples.

Results

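Long H3K27ac-associated loops, those that join anchors at least 500 kb and less than 1 Mb apart, were taken from the H3K27ac HiChIP loop lists of M14 human melanoma cells. HiChIP ligates chromatin fragments that are neighbours in the nucleus and pulls down the ligated fragments with an antibody. The antibody used was against H3K27ac, acetylated lysine 27 of histone H3, which marks enhancers and promoters that are active. All cells expressed a doxy-inducible STAG2 shRNA, a hairpin that silences this cohesin subunit when doxycycline is added. The WT group grew without doxycycline and the STAG2-KD group grew with it for 5 days before crosslinking, so the hairpin and doxycycline itself cannot be told apart here. The labels listed 2 samples per group, and 1 loop list per group was analysed. Each loop is a pair of 5 kb anchors on hg19, and its distance is measured between anchor midpoints. By this rule 845 of the 27289 loops in WT were long, as were 990 of the 25621 in STAG2-KD, which made 1565 distinct long loops of 42529 distinct loops in all.

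Loops of cohesin are thought to form by extrusion of the chromatin fibre until the complex is released or halted, often at a pair of CTCF sites that face each other. STAG2 and its paralogue STAG1 take the same place in the complex and are found in alternative forms of it. H3K27ac HiChIP sees the part of these contacts that touches acetylated chromatin, such as an enhancer and the promoter it acts on, and a gene can have acetylated partners far outside its own neighbourhood.

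The lists hold positions only, with no read count or score, so the depth behind each loop was unknown. With 1 list per group there was no replicate check on any difference between WT and STAG2-KD, and no p-value was computed. Bracketed ranges are exact Clopper-Pearson binomial intervals at 95% that cover the counting of loops alone, and they are too narrow where neighbouring loops depend on each other. A loop missing from a list can be one that fell just short of the limit of the loop caller. Both lists covered 22 autosomes, so the STAG2 gene on chromosome X was not measured. Of 9 melanocyte lineage markers, 7 had a loop of any length at a transcript start in WT and 6 in STAG2-KD, while the pigment genes MLANA and TYR had 0 in both.

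Sequences are shown for the 3 promoters at the anchors that the results turn on. TRIB2 and IRS1 start at 2 of the anchors with the most long loops, and STAG1 starts at an anchor whose long loops were all in STAG2-KD. Each run is the 250 bases before the RefSeq start of the gene, read 5′ to 3′ on the gene's strand from a table of build GRCh38.p14. Exact matching to the GRCh37 genome put each at 1 place, with its start-site end inside the anchor. These places were chr2:12856812-12857061 on the plus strand for TRIB2, chr2:227664537-227664786 on the minus strand for IRS1 and chr3:136471221-136471470 on the minus strand for STAG1. Capitals mark GC boxes (GGGCGG on either strand), the letters bound by SP and KLF family factors, and neighbouring boxes can overlap.
TRIB2: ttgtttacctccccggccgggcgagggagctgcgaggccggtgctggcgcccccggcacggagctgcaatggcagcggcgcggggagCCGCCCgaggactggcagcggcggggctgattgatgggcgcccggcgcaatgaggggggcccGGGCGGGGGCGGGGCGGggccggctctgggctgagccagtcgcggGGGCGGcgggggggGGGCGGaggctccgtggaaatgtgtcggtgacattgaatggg
IRS1: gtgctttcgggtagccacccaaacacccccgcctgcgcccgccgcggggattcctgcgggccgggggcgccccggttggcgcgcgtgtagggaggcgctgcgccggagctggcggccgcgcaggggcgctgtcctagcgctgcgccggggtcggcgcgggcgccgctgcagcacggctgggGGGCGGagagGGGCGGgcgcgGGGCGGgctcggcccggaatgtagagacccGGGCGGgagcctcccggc
STAG1: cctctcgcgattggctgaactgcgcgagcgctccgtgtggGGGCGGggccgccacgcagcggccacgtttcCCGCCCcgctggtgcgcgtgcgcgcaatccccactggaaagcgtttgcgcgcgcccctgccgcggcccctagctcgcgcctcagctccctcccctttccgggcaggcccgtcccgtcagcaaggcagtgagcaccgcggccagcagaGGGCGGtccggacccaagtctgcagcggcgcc
GC boxes numbered 6 before TRIB2, 4 before IRS1 and 3 before STAG1, and GC content was 76.8%, 80.8% and 74.4%.

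Among the 476 of 573 protein-coding genes at long-loop anchors that had an entry in that table, 62.2% (57.7 to 66.6) held a GC box in the same window, against 67.5% of 6428 genes at any loop anchor and 57.1% of all 14591 genes with an entry. The AP-1 motif (TGANTCA, either strand) was in 6.30% (4.29 to 8.88), 3.94% and 4.96% of these groups. A TATA box (TATAAA, either strand) was in 7.56% (5.35 to 10.3), 5.30% and 9.27%. The cyclic AMP response element (TGACGTCA, either strand) was in 2.31%, 2.91% and 2.39%, and the M-box bound by MITF (TCATGTG, either strand) in 1.89%, 1.31% and 1.86%. The intervals of the AP-1 motif and the TATA box lay just above the share at any loop anchor and held the share of all genes, and that of the GC box lay between the shares of these groups.

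The other sequences shown are CTCF cores, because a plus-strand core at the left anchor with a minus-strand core at the right one is the convergent arrangement known from cohesin loops. A strict 12-base core of the CTCF motif was searched for on both strands of every anchor. Of the long loops 5 had such a convergent pair. The cores of 4 of them, which were private to a list, follow. They were chosen after their values were seen and are shown with the core in capitals and 14 bases on each side, read 5′ to 3′ on the strand of its core.
chromosome 3, left anchor: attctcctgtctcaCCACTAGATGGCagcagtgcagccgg
chromosome 3, right anchor: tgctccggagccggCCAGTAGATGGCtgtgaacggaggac
chromosome 4, left anchor: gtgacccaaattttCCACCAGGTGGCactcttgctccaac
chromosome 4, right anchor: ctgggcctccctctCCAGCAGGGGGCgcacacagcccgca
chromosome 6, STAG2-KD-only, left anchor: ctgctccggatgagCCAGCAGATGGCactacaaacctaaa
chromosome 6, STAG2-KD-only, right anchor: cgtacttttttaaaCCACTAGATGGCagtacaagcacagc
chromosome 6, WT-only, left anchor: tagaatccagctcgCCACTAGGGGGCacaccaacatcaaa
chromosome 6, WT-only, right anchor: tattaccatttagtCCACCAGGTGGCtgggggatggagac
The positions that follow are those of the 40 bases shown, core and flanks together. The chromosome 3 loop was STAG2-KD-only, spanned 500 kb and joined the start of ROPN1B (chr3:125691395-125691434, plus strand) to that of ZXDC (chr3:126191408-126191447, minus strand). The chromosome 4 loop was STAG2-KD-only, spanned 550 kb and had no protein-coding start at either anchor (chr4:38181438-38181477, plus strand, and chr4:38732914-38732953, minus strand). The first loop on chromosome 6 was STAG2-KD-only and spanned 535 kb. It also lacked protein-coding starts at its anchors (chr6:90650332-90650371, plus strand, and chr6:91189212-91189251, minus strand). The second was WT-only, spanned 515 kb and had its left core at the anchor of SGK1, a kinase gene induced by steroids and serum (chr6:134495243-134495282, plus strand, and chr6:135011380-135011419, minus strand).

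Long loops took a larger share of the STAG2-KD list than of the WT list. They made up 3.10% in WT (2.89 to 3.31) and 3.86% in STAG2-KD (3.63 to 4.11), and the number of long loops in STAG2-KD was 1.17 times that in WT although the whole STAG2-KD list was 0.939 times as long. Loops of 200 to 500 kb gave a ratio of 0.929, and loops of 1 to 2 Mb one of 1.15. The ratio was 0.897 at 50 to 100 kb and 0.846 at 100 to 200 kb. Loops of 20 to 50 kb gave 1.03, with 28.1% of the WT list and 30.9% of the STAG2-KD list, so a larger share was not limited to long loops. Within the long loops, the ratio ran from 0.979 at 600 to 650 kb to 1.45 at 650 to 700 kb. The 600 to 650 kb class was the only one of the 10 classes of 50 kb with fewer loops in STAG2-KD, with 143 against 146. At the lower limit there were 27 loops of exactly 500 kb in WT and 29 in STAG2-KD and, just outside, 30 and 27 of 495 kb. At the upper limit they held 3 and 5 loops of 995 kb and, just outside, 3 and 3 of 1000 kb.

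**Figure D1:**
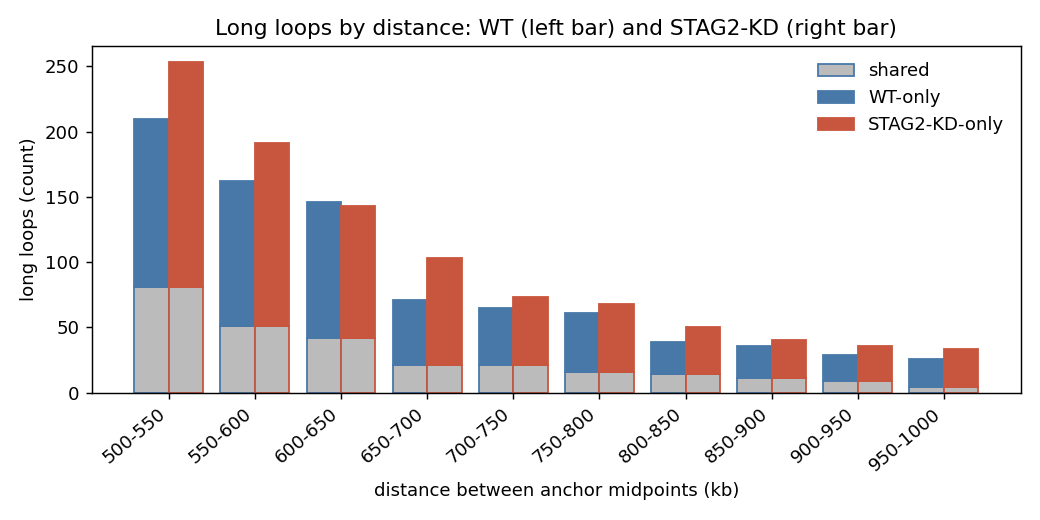
Number of long loops (vertical axis, count) in classes of 50 kb of the distance between anchor midpoints (horizontal axis, kb), with WT as the left and STAG2-KD as the right bar of each pair, the shared loops in grey and the private loops of each list in colour. The STAG2-KD bar is the taller in 9 of 10 classes, with 253 against 210 loops at 500 to 550 kb.

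A smaller part of the long loops than of all loops was shared between the lists, and in WT this part was close to that of loops of 100 to 500 kb. Loops with identical bins at the left and the right anchor in WT and STAG2-KD were counted as shared, and 270 long loops met this. They were 32.0% of the WT long loops (28.8 to 35.2), against 38.0% of all WT loops, and 27.3% of the STAG2-KD long loops (24.5 to 30.2), against 40.5% of all STAG2-KD loops. The shared part in WT and STAG2-KD was 46.9% and 45.4% at 20 to 50 kb, 33.3% and 39.3% at 100 to 200 kb, 33.1% and 35.7% at 200 to 500 kb, and 30.8% and 26.9% at 1 to 2 Mb. The 575 WT-only long loops were 68.0% of the WT long loops (64.8 to 71.2), where 62.0% of all WT loops were WT-only. The 720 STAG2-KD-only long loops were 72.7% of the STAG2-KD long loops (69.8 to 75.5), where 59.5% of all STAG2-KD loops were STAG2-KD-only. Of all private long loops, 55.6% (52.8 to 58.3) were in STAG2-KD, where the same share over private loops of all lengths was 47.4%. Shared, WT-only and STAG2-KD-only long loops had similar lengths, with medians of 605, 615 and 620 kb.

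**Figure D2:**
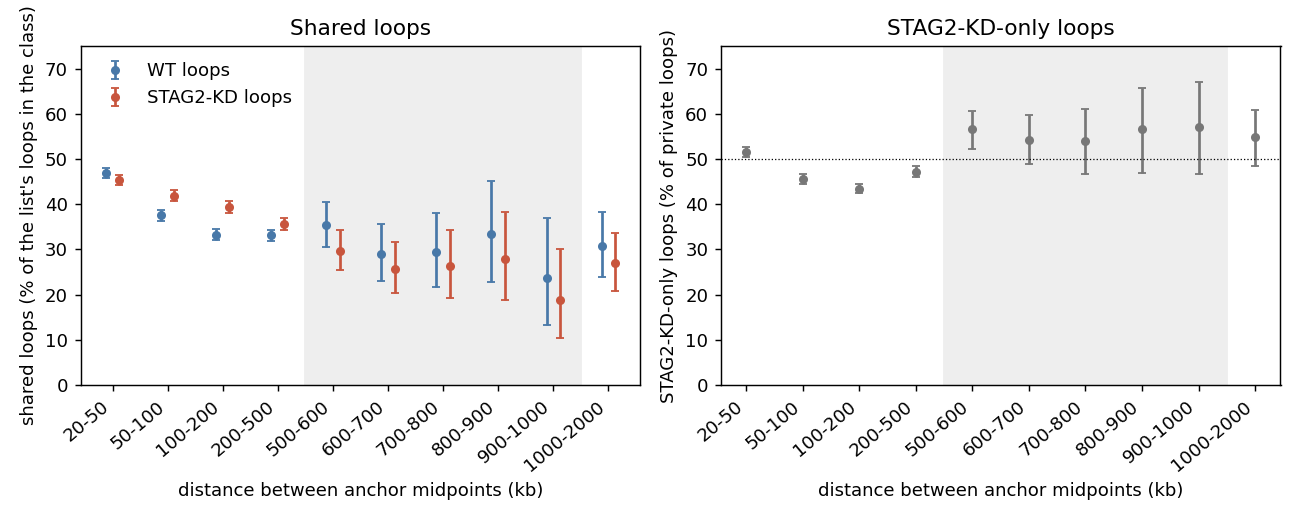
Left, shared loops as a percentage of each list's loops, and right, STAG2-KD-only loops as a percentage of all private loops, by class of distance between anchor midpoints (horizontal axes, kb); points are values, bars are exact 95% binomial intervals, the grey band covers the long loops and the dotted line marks 50%. In the left panel the WT value is below the STAG2-KD value at 200 to 500 kb (33.1% and 35.7%) and above it at 500 to 600 kb (35.5% and 29.7%).

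Some private long loops lay close to a loop of the other list. Sharing with a tolerance was not computed for other lengths, so whether long loops differ in this was not tested. With a tolerance of 1 bin at each anchor, the shared part was 37.3% in WT and 31.9% in STAG2-KD, and within 5 bins, or 25 kb, 59.1% and 50.7%. The STAG2-KD-only share of private long loops was 55.6% with the same bins and 58.5% within 5 bins. The early growth response gene EGR1, an immediate early target of ERK signalling, is an example: its WT loop of 810 kb and its STAG2-KD loop of 805 kb both ran to MATR3, a nuclear matrix protein gene, and ended in neighbouring bins. Long loops in the earlier 50% of each chromosome's lines were shared more often than those in the later 50%. The values were 45.7% and 23.5% in WT and 38.3% and 20.1% in STAG2-KD. These shares were not computed for loops of all lengths. What sets the order of the lines is not given in the sources used here.

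The anchors of private long loops were mostly in use in both lists. Of the WT-only long loops, 56.3% (52.2 to 60.4) had both anchors at a loop of some length among STAG2-KD loops, 40.5% had 1 such anchor and 3.13% had none. Of the STAG2-KD-only long loops, 52.9% (49.2 to 56.6) had both anchors at some WT loop, 42.4% had 1 such anchor and 4.72% had none. Over private loops of all lengths the share with both anchors was 42.2% and 42.9%. In each list this share was higher for private long loops than for private loops of all lengths.

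Chromosome by chromosome, the share of long loops was higher in STAG2-KD on 21 of 22 autosomes, with chromosome 20 the exception at 3.34% in WT and 3.20% in STAG2-KD. By count, STAG2-KD had more long loops on 15 autosomes, fewer on 5 and equal numbers on 2. Chromosome 2 held the most, with 121 in WT and 137 in STAG2-KD, and chromosome 4 held 6 and 11. The interval of the STAG2-KD-only share of private long loops lay above 50% on 3 chromosomes and below it on 0. These were chromosome 1, with 76 WT and 111 STAG2-KD long loops, chromosome 3, with 49 and 85, and chromosome 18, with 9 and 22.

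**Figure D3:**
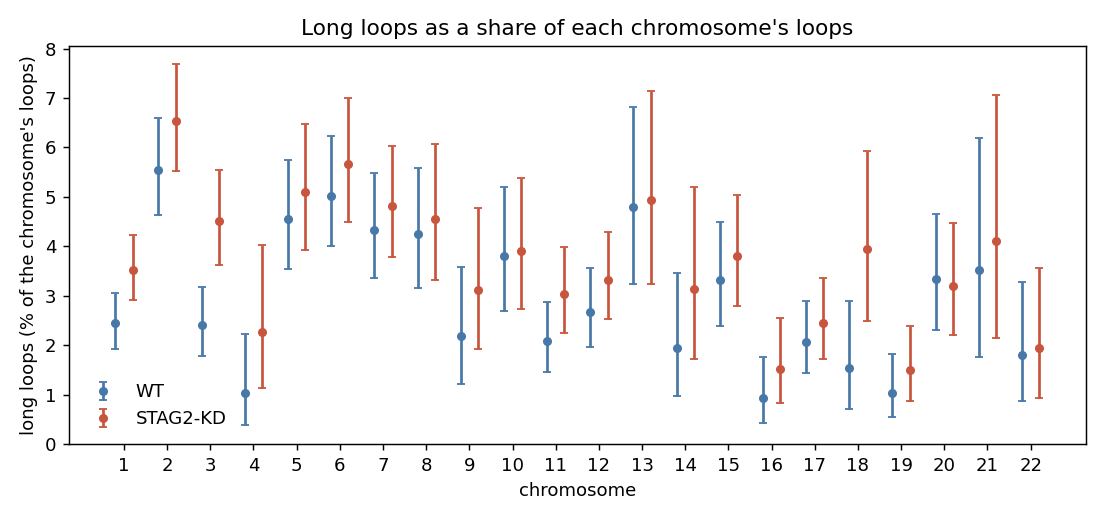
Long loops as a percentage of all loops of the chromosome (vertical axis) on each of 22 autosomes (horizontal axis) in WT and STAG2-KD, with exact 95% binomial intervals as bars. The STAG2-KD point is the higher on 21 chromosomes, and the points lie farthest apart on chromosome 18 (1.54% and 3.95%) and chromosome 3 (2.41% and 4.51%).

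Most anchors carried a single long loop and a few carried many. WT long loops used 1180 anchors and STAG2-KD long loops 1406, of which 552 were in both sets. An anchor had 1.43 ± 1.17 long loops in WT and 1.41 ± 1.10 in STAG2-KD (mean ± SD over anchors). A single long loop was held by 77.3% of WT and 78.0% of STAG2-KD anchors, 3 or more by 107 and 121 anchors, and 5 or more by 26 and 27. The highest count was at the promoter of TRIB2, a pseudokinase of the Tribbles family that acts as an oncogene in melanoma (anchor chr2:12855001-12860000). It had 18 long loops in WT and 14 in STAG2-KD, 8 of them shared. All its partners lay to the left, 535 to 975 kb away. The next anchor, chr2:11970001-11975000 at the start of the noncoding gene MIR3681HG, had 13 and 12 long loops with 7 shared, and 1 of the shared ones ran over 885 kb to the TRIB2 promoter. A further pair of the 8 busiest anchors lay in the same stretch. The anchor chr2:12455001-12460000 had 9 and 10 long loops, and chr2:13145001-13150000 had 6 and 8.

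The histone gene cluster on chromosome 6 held the third of these anchors. It was chr6:27095001-27100000, 0.327 kb from a start of H2BC11, which encodes a core histone H2B. This anchor had 11 long loops in WT and 13 in STAG2-KD, 7 of them shared. Its partners lay on both sides, 500 to 940 kb away, and included the starts of H2AC8, of H2BC9 and H3C7, of H2BC10 and H3C8, and of H2AC13, H2BC13 and H3C10. The promoter of IRS1, the adaptor of the insulin and IGF receptors (anchor chr2:227660001-227665000), had 8 WT and 9 STAG2-KD long loops, 3 of them shared and all to the left. The anchor chr7:130505001-130510000, 86.0 kb from a start of KLF14, had 8 in each list with 4 shared. The anchor chr11:16625001-16630000, at a start of a noncoding SOX6 transcript, had 7 and 8 with 6 shared. Each of these 8 anchors had long loops in both lists, and the counts differed by at most 4.

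The anchors with the largest excess in either list, TRIB2 among them, differed by 4 or more. In STAG2-KD the largest excess was at 3 anchors that each had 2 long loops in WT and 7 in STAG2-KD. One lay 4.74 kb from a start of TRPM8, the cold-sensing cation channel gene (chr2:234880001-234885000). Another lay 61.7 kb from a start of CMSS1 (chr3:99470001-99475000). The last lay 6.32 kb from a start of DUSP4, a phosphatase gene that limits ERK (chr8:29195001-29200000). These distances are to the nearest protein-coding transcript start, so an anchor can lie inside a gene. Over all lengths these anchors had 6 WT and 10 STAG2-KD loops, 5 and 15, and 16 and 20. At the STAG1 promoter (chr3:136470001-136475000) WT had 0 long loops and STAG2-KD had 4, of 655 to 695 kb. All ran to a stretch of neighbouring anchors 33.4 to 73.4 kb from a start of PPP2R3A, a phosphatase subunit gene. Counted over all lengths, the STAG1 anchor had 12 WT loops and 13 STAG2-KD loops. The anchor chr20:50695001-50700000, 15.0 kb from a start of ZFP64, had 0 and 4 long loops, and it had no loop of any length in WT.

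In WT the largest excess was at chr8:129885001-129890000, in a stretch beyond MYC poor in protein-coding starts, with 7 long loops in WT and 1 in STAG2-KD. The promoter of SPRY2, a feedback inhibitor of RAS and ERK signalling (chr13:80910001-80915000), had 9 and 4 long loops with 1 shared. Its 9 WT loops all ran to the left, over 530 to 720 kb, into the interval toward NDFIP2, and 1 of the 4 STAG2-KD loops ran to the right over 675 kb. TRIB2 followed with 18 and 14. A start of IFRD1, a transcriptional coregulator gene (chr7:112090001-112095000), had 7 and 3, and the promoter of KLHDC10, a kelch-domain protein gene (chr7:129710001-129715000), had 5 and 1. These 3 were the first by position of 5 anchors with an excess of 4, and the others had 8 and 4 and 4 and 0. Counted over all its starts, IFRD1 had 7 and 5 long loops. Over all lengths the chromosome 8 anchor had 17 WT and 8 STAG2-KD loops, and the SPRY2 anchor 19 and 13. Those of TRIB2, IFRD1 and KLHDC10 had 44 and 42, 16 and 8, and 7 and 3. Each thus had fewer loops of any length in STAG2-KD as well.

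**Figure D4:**
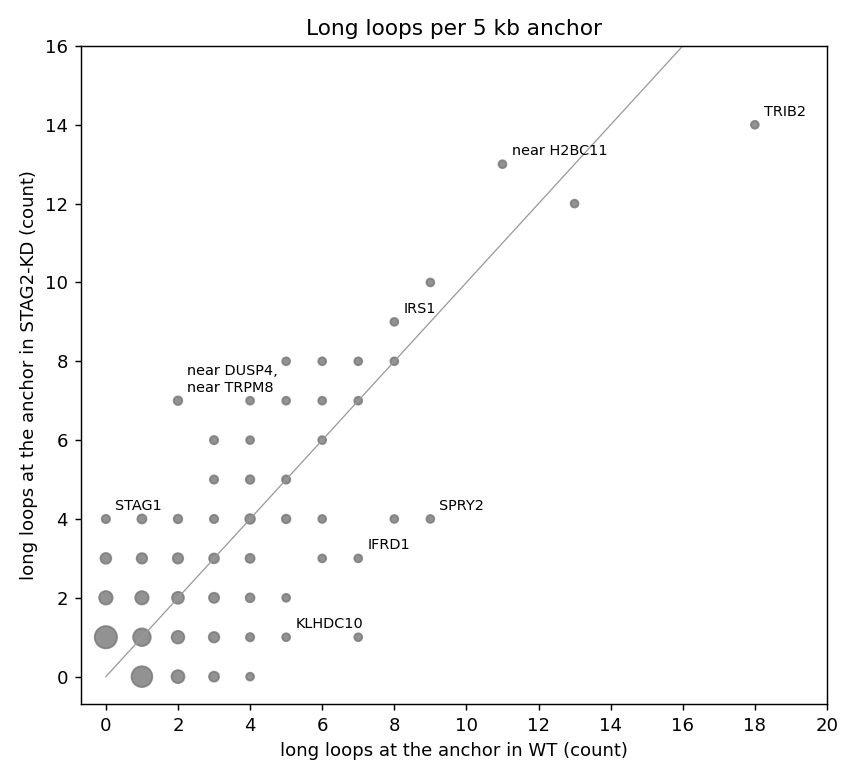
Long loops at each 5 kb anchor in WT (horizontal axis, count) and STAG2-KD (vertical axis, count); each point is a pair of counts, its area grows with the number of anchors there, the line marks equal counts, and the named anchors with a protein-coding start inside or within 10 kb are labelled. TRIB2 lies at 18 and 14, SPRY2 at 9 and 4 and STAG1 at 0 and 4.

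Joined through shared anchors, the long loops of both lists formed 547 loci. Of these, 310 held a single loop, 159 held 2 to 4, and 78 held 5 or more and together 53.3% of all long loops. The lists met in 204 loci, 128 loci were of WT loops alone and 215 of STAG2-KD loops alone. Loops in large loci were shared more often. In loci of 10 or more loops 38.5% of WT and 37.8% of STAG2-KD long loops were shared, in loci of 2 to 9 loops 31.3% and 26.9%, and in single-loop loci 16.5% and 10.3%.

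The 5 largest loci differed in gene content. The TRIB2 locus (chr2:11825001-13190000) held 79 loops, of which 54 were WT loops, 50 were STAG2-KD loops and 25 were both, and TRIB2 was the only protein-coding gene start in its 1365 kb. The histone locus (chr6:26155001-27865000) held 31, of which 20 were WT loops, 24 were STAG2-KD loops and 13 were both. It had 51 protein-coding gene starts in 1710 kb. A locus beyond MYC (chr8:128910001-130715000) held 26, of which 22 were WT loops, 8 were STAG2-KD loops and 4 were both. It had 0 protein-coding gene starts in 1805 kb. The locus of KLF6, a zinc finger transcription factor gene (chr10:3265001-4810000), held 22, of which 13 were WT loops, 16 were STAG2-KD loops and 7 were both. The IRS1 locus (chr2:226750001-227665000) held 20, of which 11 were WT loops, 12 were STAG2-KD loops and 3 were both. The locus beyond MYC had the fewest STAG2-KD loops of the 5.

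Among the other loci of 10 or more loops, some leaned to STAG2-KD. Those named here were chosen after their values were seen. A locus that ends at SH3BP4 (chr2:234850001-235865000) had 2 WT and 10 STAG2-KD long loops, one that includes COL8A1 (chr3:98535001-99475000) had 2 and 9, and the locus of THBS1, the secreted matrix protein thrombospondin (chr15:39005001-39920000), had 5 and 10. All 5 WT loops of the THBS1 locus were also in STAG2-KD. Others leaned to WT. The SPRY2 locus (chr13:80080001-81590000) had 11 WT and 6 STAG2-KD loops, the locus of JARID2, a Polycomb cofactor gene (chr6:14210001-15475000), had 11 and 5, and a locus with COG1, FAM104A, C17orf80 and CDC42EP4 (chr17:69870001-71310000) had 14 and 7.

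Long loops joined 2 protein-coding starts less often than loops in general did. A protein-coding transcript start lay in both anchors of 10.7% of WT long loops (8.65 to 12.9), in 1 anchor of 32.3% and in neither of 57.0%. In STAG2-KD the values were 11.1% (9.22 to 13.2), 37.1% and 51.8%. Over all loops the share with starts in both anchors was 15.0% in WT and 14.7% in STAG2-KD, and that with none was 49.8% and 49.3%. The sets differed most in long loops with no start at either anchor. These were 60.0% of the WT-only set (55.9 to 64.0), 52.2% of the STAG2-KD-only set (48.5 to 55.9) and 50.7% of the shared set (44.6 to 56.9), where over loops of all lengths the values were 53.0%, 52.4% and 44.6%. The STAG2-KD-only value was thus near that of all lengths. Without loci of 10 or more loops, an alternative chosen after seeing the data, the values were 59.1%, 48.6% and 46.4%.

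The longest shared loops between promoters linked genes of varied function. The longest, of 875 kb on chromosome 3, joined LSG1, a ribosome assembly GTPase gene, to PPP1R2, an inhibitor of protein phosphatase 1. On chromosome 12, TXNRD1, the cytosolic thioredoxin reductase, was joined over 820 kb to an anchor with WASHC4 and ALDH1L2. In the major histocompatibility region, PPT2 and PRRT1 over 815 kb and AGPAT1 over 795 kb were both joined to an anchor with BRD2, a bromodomain reader of acetylated histones, and HLA-DMA, which helps load peptides on class II molecules. CTNND1, which encodes p120 catenin, was joined over 795 kb to LPXN on chromosome 11, and the anchor of ERMARD and DYNLT2 over 710 kb to that of the proteasome subunit PSMB1 and the TATA-binding protein TBP on chromosome 6. The anchor of the kinetochore gene NDC80 and of METTL4 was joined over 690 kb to MYL12B, a myosin light chain gene, on chromosome 18. The remaining 3 of the 10 longest were between histone genes, all from the anchor of H2AC12 and H2BC12: to H2BC10 and H3C8 over 840 kb, to H2AC17 and H2BC17 over 750 kb, and to the linker histone H1-5 over 725 kb. Histone genes at both anchors were found for 5 long loops in WT and 5 in STAG2-KD, 4 of them shared. Histone genes of the same family resemble each other, and whether this affected the placing of reads was not tested.

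Most long loops crossed few genes, and STAG2-KD-only loops crossed more than shared and WT-only loops by the median and by the mean. The median was 1.98 protein-coding gene starts per Mb in the shared set (quartiles 0 and 6.61), 2.02 in the WT-only set (1.06 and 5.91) and 3.59 in the STAG2-KD-only set (1.37 and 7.96). The distributions were skewed, and the means ± SD over loops were 5.83 ± 9.59, 5.36 ± 9.0 and 7.39 ± 11.7 per Mb, where the autosomes as a whole had 6.67. No gene start lay between the anchors of 25.9% (20.8 to 31.6) of the shared set, 23.5% (20.1 to 27.2) of the WT-only set and 18.1% (15.3 to 21.1) of the STAG2-KD-only set. The share of the interval covered by protein-coding genes had medians of 27.2%, 35.4% and 46.0%, where genes cover 43.4% of the autosomes. Large loci carried part of this gap. Without loci of 10 or more loops the medians were 3.46, 3.42 and 3.94 starts per Mb, and without the TRIB2 locus alone 2.84, 2.68 and 3.67. Loops of 200 to 500 kb had medians of 4.26 in WT and 4.65 in STAG2-KD. Loops of 1 to 2 Mb had 0.985 and 1.00. The shared, WT-only and STAG2-KD-only medians were 4.26, 4.26 and 4.88 at 200 to 500 kb. At 1 to 2 Mb they were 0.766, 1.40 and 1.45. Loops without a start were 30.3%, 31.0% and 24.2% of these sets at 200 to 500 kb, and 41.5%, 28.6% and 22.2% at 1 to 2 Mb. The higher median of the STAG2-KD-only set was thus not particular to long loops.

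**Figure D5:**
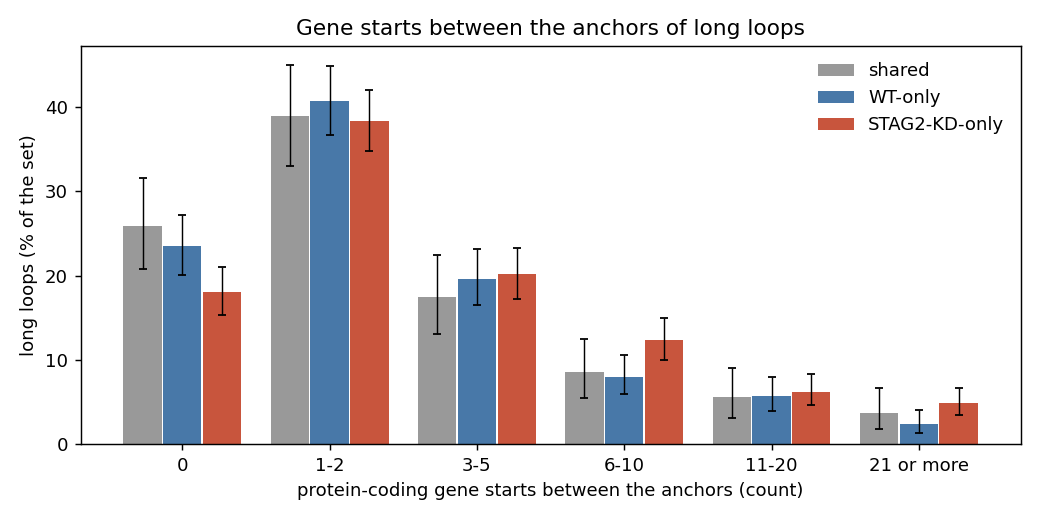
Share of each set (vertical axis, percent) by the number of protein-coding gene starts between the anchors (horizontal axis, count) for shared, WT-only and STAG2-KD-only long loops, with exact 95% binomial intervals as bars. The STAG2-KD-only bar is the lowest of the 3 at 0 starts (18.1%) and the highest at 6 to 10 starts (12.4%, against 8.00% for WT-only).

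The extremes of gene content were alike in the 3 sets. The most gene starts between anchors lay in the keratin region of chromosome 17, with 49 for a shared loop of 635 kb, 43 for 2 WT-only loops, of which 1 spanned 585 kb from KRT10, a keratin of the upper epidermis, and 58 for a STAG2-KD-only loop of 915 kb to EIF1, a translation initiation factor gene. With 0 starts, the longest were a shared loop of 910 kb to IRS1, a WT-only loop of 990 kb on chromosome 6 beyond QKI, and a STAG2-KD-only loop of 995 kb from QKI itself, an RNA-binding protein gene. The longest member of the shared set spanned 990 kb to IFI16, a DNA sensor induced by interferon. In the WT-only set 3 loops shared the greatest length of 995 kb, of which the first by position ran to ZEB2. In the STAG2-KD-only set 5 loops did, of which the first ran from TSSK3 to a bin 0.373 kb from a start of PHC2.

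Genes passed over by long loops were often anchors themselves. In WT 1420 protein-coding genes had their start between the anchors of a long loop, and 47.0% of them (44.4 to 49.7) had a transcript start at some loop anchor of the list, against 35.9% of all 19222 autosomal protein-coding genes. In STAG2-KD 1961 genes lay between, and 45.0% (42.8 to 47.3) were at some anchor, against 33.7%. A WT long loop enclosed a median of 18 shorter loops of its list and a STAG2-KD long loop 15.

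A chain of loops under 500 kb often linked the same anchors. In WT 43.4% of long loops (40.1 to 46.9) had their anchors joined by such a chain within the list, and in STAG2-KD 36.7% (33.7 to 39.8). For shared long loops the values were 55.9% in the WT list and 55.6% in the STAG2-KD list, and for private ones 37.6% in WT and 29.6% in STAG2-KD. The STAG2-KD list held fewer loops under 500 kb than the WT list, and the part of this in the difference was not tested.

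Anchors of long loops held CTCF cores at a share near that of loop anchors in general in WT, and at a somewhat higher one in STAG2-KD. The strict core lay in 4.15% of WT (3.09 to 5.45) and 5.48% of STAG2-KD long-loop anchors (4.35 to 6.80), against 4.28% and 4.20% of the anchors of all loops and 1.89% of all autosomal 5 kb bins. With a looser core, chosen after seeing the data, the values were 10.3% (8.58 to 12.1) and 11.5% (9.90 to 13.3), against 9.51% and 9.56%. Counted per loop, a strict core lay in at least 1 anchor of 8.88% of WT and 10.5% of STAG2-KD long loops. Loops of 200 to 500 kb had 9.37% and 10.9%, and loops of 1 to 2 Mb 9.30% and 11.2%. Over all loops the values were 8.27% and 8.47%. The higher STAG2-KD share was thus not particular to long loops. A convergent pair was present in 2 of 845 WT and 4 of 990 STAG2-KD long loops. These were 0.237% and 0.404%, against 0.206% and 0.384% at 200 to 500 kb and 0.147% and 0.211% of all loops. Among them 1 was shared, a loop of 675 kb near DUSP4. A divergent pair was in 0 long loops of each list, against 0.0183% and 0.0234% of all loops. With the looser core a convergent pair was present in 5 WT and 10 STAG2-KD long loops. These were 0.592% and 1.01%, against 0.751% and 0.829% at 200 to 500 kb and 0.586% and 0.605% of all loops. A divergent pair was then in 1 and 2 long loops, or 0.118% and 0.202%, against 0.169% and 0.176% of all loops. Matching by letters finds a small part of the sites that CTCF can bind, and no binding was measured here.

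Each of the gene lists named here had at most 5 members at long-loop anchors, in WT as in STAG2-KD. The lists were chosen with earlier results of these data known, so their counts are a description. Over all protein-coding genes 1.81% had a transcript start at a long-loop anchor in WT and 2.27% in STAG2-KD, 347 and 437 genes, of which 211 were in both. Of the 16 phenotype switching factors, which steer melanoma cells between melanocytic and mesenchymal states, 5 had long loops in both lists. ZEB2 had 1 in WT and 3 in STAG2-KD, SNAI2 2 and 2, PRRX1 2 and 2, NFATC2 5 and 4, and RUNX1 2 and 3. Both PRRX1 loops were shared, and those of ZEB2 and SNAI2 were all private. Of 19 autosomal melanocyte lineage genes, 3 had long loops in WT and 2 in STAG2-KD. The lineage factor MITF had 1 and 0, the transcription factor TFAP2A 2 and 2, and SLC45A2, a melanosome transporter gene, 2 and 1. A separate locus whose extent holds MITF (chr3:69135001-70090000) had 5 WT and 7 STAG2-KD long loops, without a protein-coding start at its anchors. The TFAP2A loops ran 870 to 930 kb to the left across 0 protein-coding gene starts.

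Of 16 ERK feedback genes and targets, 4 had long loops in each list and 3 in both. SPRY2 had 9 in WT and 4 in STAG2-KD, EGR1 1 and 1, and the oncogene MYC 5 and 8 with 3 shared. PHLDA1 had 1 in WT alone and the G1 cyclin gene CCND1 1 in STAG2-KD alone. The MYC loops ran to both sides of the gene, over 860 to 915 kb to the left and 545 to 945 kb to the right. Of 12 AP-1 genes, FOSL2 had 2 and 3 long loops and JUN 2 and 1, none of them shared.

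In 4 of the other lists long loops were found in STAG2-KD alone. Of the 12 autosomal cohesin and CTCF genes, STAG1 had none in WT against 4 in STAG2-KD, and PDS5B, which regulates the release of cohesin, had 0 and 1. Of 27 interferon signalling genes, IRF1, a transcription factor induced by interferon, had 0 and 1, a loop of 555 kb across 15 gene starts to HSPA4. Of 15 cell cycle and survival genes, BCL2L11, which promotes apoptosis, had 0 and 2. Of 21 matrix and adhesion genes, THBS1 had 0 and 3. Single genes with 1 to 4 loops carry each of these counts. The 18 genes of TGF-beta and YAP signalling and the 13 receptors of drug resistance had 0 long loops in either list, while 10 and 5 of them in WT and 12 and 6 in STAG2-KD had a loop of some length.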

How the data were processed

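H3K27ac HiChIP libraries of M14 cells were assigned to WT and STAG2-KD by their titles, and 1 loop list per group, filed under replicate 1, was used. Per the study's methods, the authors used HiC-Pro for alignment to hg19, hichip-peaks for peaks and FitHiChIP for loops. The methods state false discovery rate limits for peaks and, with a filter on reads per replicate, for loops in the differential analysis. Whether these apply to the deposited lists, whether a list pools its replicates, and tool versions are not given in the sources used here. The deposited lists hold chromosome, start of the left anchor and end of the right anchor, with no counts, so depth and precision per loop are unknown. Distance was end minus start minus 5000 bases. Genes were those of GENCODE 44 (GRCh37 version), motifs from exact matching to the GRCh37 genome, and promoters from RefSeq. Gene starts between anchors or in a locus are those of protein-coding genes unless all annotated genes are named. Those between anchors exclude the anchors. A locus is a set of long loops connected through common anchor bins.

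The members and gene lists were chosen with earlier results of these data known. Named items followed a rule: the 8 anchors with the most long loops, the 5 with the largest excess in each list, the 5 largest loci, the extremes of length and gene content per set (ties at 0 genes settled by length), the 10 longest shared loops between promoters, and listed genes at long-loop anchors. The rule for CTCF sequences, shared named loops with a convergent pair outside chromosome 8, found 0, so the other convergent loops were shown. Alternatives were other tolerances, limits, gene definitions and CTCF cores, and lists without chromosome 2 or the later lines. Functions were tested on simulated data, and 9 of 9 known answers were recovered. Python 3.11.15, numpy 2.4.6, scipy 1.17.1, pysam 0.24.0 and matplotlib 3.10.9 were used. The result of one gene list is not reported here.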

Additional observations from a re-analysis of the deposited data

How the results depend on the processing

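Of 65 values recomputed under alternatives for 21 results, 26 were classed as the same and 39 as moved. Of the moved values 6 are another quantity, all annotated genes or percent covered in place of protein-coding starts. For shares with an interval, the same meant within that interval. Counts and medians had no interval, so their class is only a rough guide. With limits of 600 kb and 1 Mb, long loops were 1.73% of the WT and 2.13% of the STAG2-KD list. Without chromosome 2 they were 2.88% and 3.63%, and in the earlier 50% of each chromosome's lines 2.36% and 3.04%. The STAG2-KD value was the higher in each. Shared loops were 37.3% of WT and 31.9% of STAG2-KD long loops within 1 bin, and 41.7% and 35.9% within 2 bins. Within 5 bins they were 59.1% and 50.7%, and in the earlier 50% of each chromosome's lines 45.7% and 38.3%. The STAG2-KD-only share of private long loops was 58.5% within 5 bins. Private long loops with both anchors in the other list were 68.2% for the WT-only set and 66.8% for the other with anchors within 1 bin, and 74.3% and 72.4% within 2 bins. With any transcript start, 19.3% of WT and 20% of STAG2-KD long loops had starts at both anchors and 44.0% and 45.7% at 1, and with protein-coding starts within 5 kb 15.7% and 16.9%, and 37.5% and 43.2%. By starts of all annotated genes the medians per Mb were 16.9, 16.5 and 17.3 for the shared, WT-only and STAG2-KD-only sets, by percent covered 27.2%, 35.4% and 46.0%, and without loci of 10 or more loops the shared and WT-only medians of protein-coding starts were 3.46 and 3.42 per Mb. Convergent CTCF cores were in 0% of WT and 0.202% of STAG2-KD long loops with a 13-base core. With cores within 5 kb they were in 0.947% and 0.909%, so the STAG2-KD value was then not the higher. With steps between neighbouring bins, shorter loops joined 50.3% of WT and 43.7% of STAG2-KD long loops. The causes of these shifts were not tested.

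No paired analysis was possible because 1 loop list stood for a group. Positions without counts give no depth, loops at the caller's limit cannot be told from absent contacts, and there was no replicate to leave out. The looser CTCF core and the lists without large loci were chosen after seeing the data.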
